A study of Mus musculus with 14 samples.

Results

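Tetraspanins are small membrane proteins that span the membrane 4 times and gather partner proteins into patches of the cell surface and of endosomes. Here they are the 27 protein-coding rows, among 55335 gene rows, whose symbol is Tspan followed by a number or is Cd9, Cd37, Cd53, Cd63, Cd81, Cd82 or Cd151. They were compared in endothelial reporter mice that were left untreated or irradiated in 1 of 3 ways. The family was chosen by the values of Cd63 and Tspan14, whose counts differed with treatment in these same libraries. Their values are therefore given as a description, without a test, and counts of members past a test are made over the others. A total of 25 members passed the filter on low counts. Tspan1 and Tspan10 did not, with at most 1 and 2 counts in any library.

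All mice carried Cdh5 CRE and Rosa26 TdTomato, so that cells with a history of Cre expression from the Cdh5 (VE-cadherin) promoter, and their descendants, are red. The libraries came from marrow cells sorted as Lineage-, CD45- and TdTomato+ and harvested 8 days after treatment. The 4 untreated libraries were compared with 5 after total body irradiation (TBI) with 500 cGy from a caesium source, 3 after radioimmunotherapy (RIT) with 20 µCi on an IgG antibody and 2 after RIT with 20 µCi on a CD45 antibody. The series' title names astatine, an alpha emitter, for the CD45-targeted treatment. The labels number the TBI libraries 1, 3, 4, 5 and 6. They do not say whether the Cre is inducible, whether each library is 1 mouse, or what ages the mice were, so p-values measure the spread between these libraries, which may be technical. Cre driven by Cdh5 in the embryo also marks blood cells, which descend in part from vessel lining cells. The smallest library, TBI replicate 6, had 16412779 counts, and the largest, untreated replicate 1, had 31077588. Library numbers ran in step with treatment. TBI replicate 6 was number 10, IgG RIT held 11, 12 and 13, and CD45 RIT held 15 and 16. Every other library had a number from 1 to 9. Treatment and library number thus cannot be told apart in any comparison with an RIT group, and the part of the number was not tested.

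The labelled cell type was weakly represented. Cdh5 itself had 0 to 6 counts in untreated libraries, 0 to 5 after TBI and 0 in all 5 RIT libraries, and 20 endothelial markers together summed to 165 to 206 CPM (counts scaled to a library of 1e6) in untreated libraries, 101 to 153 after TBI, 86.2 to 102 after IgG RIT and 138 to 469.9 after CD45 RIT. The endothelial markers went both ways after CD45 RIT. Of 16 tested in edgeR, 4 rose and 4 fell against untreated, where 33.1% of all genes tested passed, and Tek, Tie1 and Emcn, 3 vessel markers, had 0 counts in both CD45 RIT libraries. Against IgG RIT 5 rose and 3 fell, where 37.7% of all genes passed. Against TBI 6 rose and 3 fell, where 38.6% passed. Haemoglobin and other erythroid genes summed to 9829.8 to 15586 CPM in untreated libraries, 30637 to 225448 after TBI, 170046 to 193882 after IgG RIT and 62132 to 281239 after CD45 RIT. Markers of marrow stroma summed to 2701 to 7014, 918 to 1971, 433 to 1508 and 47396 to 71548 CPM in the same order. TBI replicate 6 had the highest erythroid sum of its group. The CD45 RIT libraries differed from each other: replicate 2 held globin transcripts, but the erythroid regulators Gata1 and Klf1 had 0 counts there, against 1107 and 7580 in replicate 1. Results that rest on TBI replicate 6 or on 1 of the CD45 RIT libraries are given with and without it. Because these are pooled cells, fewer cells of a type and less RNA per cell cannot be told apart.

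Tetraspanins have no known enzyme activity. They act by carrying partners to the right membrane and holding them there: integrins, immunoglobulin-domain proteins, and the sheddase Adam10, which is escorted from the endoplasmic reticulum by the TspanC8 subgroup (Tspan5, Tspan10, Tspan14, Tspan15, Tspan17 and Tspan33). Several, with Cd9, Cd63 and Cd81 the best known, are abundant on extracellular vesicles. In marrow, Cd37 and Cd53 mark leukocytes, Tspan33 marks erythroid precursors, Cd82 has been tied to stem cell quiescence, and Cd63 sits in the granules of basophils, mast cells and platelets.

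The windows below show the 250 bases upstream of a RefSeq start (GRCm38.p6) of the genes on which the description turns. These are Cd63 and Tspan14, chosen for their values, and Tspan33, the member with the highest mean level per length after TBI and IgG RIT. The TBI mean rests on replicate 6, and Tspan13 led in the other TBI libraries. The windows are printed 5′ to 3′ on the strand of the gene. Capitals mark matches on either strand to the GC box (GGGCGG) and the CCAAT box (CCAAT), which are common elements of vertebrate promoters.
Cd63: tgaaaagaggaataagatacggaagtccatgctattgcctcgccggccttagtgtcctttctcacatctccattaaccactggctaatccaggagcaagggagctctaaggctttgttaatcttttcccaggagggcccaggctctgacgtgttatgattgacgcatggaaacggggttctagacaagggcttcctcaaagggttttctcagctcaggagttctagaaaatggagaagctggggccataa
Tspan14: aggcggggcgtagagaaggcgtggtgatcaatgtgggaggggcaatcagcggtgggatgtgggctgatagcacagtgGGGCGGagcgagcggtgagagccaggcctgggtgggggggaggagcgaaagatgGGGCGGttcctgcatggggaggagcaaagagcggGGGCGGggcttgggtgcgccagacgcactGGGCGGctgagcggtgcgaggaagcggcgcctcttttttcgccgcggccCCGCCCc
Tspan33: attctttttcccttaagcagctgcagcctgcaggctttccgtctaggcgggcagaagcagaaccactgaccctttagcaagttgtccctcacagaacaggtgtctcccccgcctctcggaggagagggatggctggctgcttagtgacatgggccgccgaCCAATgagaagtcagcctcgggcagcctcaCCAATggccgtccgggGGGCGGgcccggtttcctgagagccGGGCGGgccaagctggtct
The Cd63 window lay at chr10:128909095-128909344 on the plus strand, with no match to either box and 48.8% G or C. It falls inside the span that the counts file gives for Cd63 (128900989 to 128912822), not upstream of it. The printed Tspan14 window, at chr14:40966897-40967146 on the minus strand, had 5 GC boxes and no CCAAT box, at 69.6% G or C. Another RefSeq start of Tspan14, with its window at chr14:40948210-40948459, had no match to either box and 47.6% G or C. The Tspan33 window, at chr6:29693964-29694213 on the plus strand, held 2 GC boxes and 2 CCAAT boxes, at 62.4% G or C. None of the 3 printed windows overlapped an annotated exon, nor did the other Tspan14 window. Of 32851 windows of that length in the same RefSeq set, 32.7% held a GC box and 33.9% a CCAAT box. A match is a description of letters and not evidence of a bound factor.

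Cd63 (ENSMUSG00000025351.14, chromosome 10, 128900989 to 128912822, plus strand), which sits in late endosomes and on exosomes, held 405, 519, 337 and 361 CPM in untreated libraries 1 to 4. After TBI it held 67.6, 71.1, 72.0, 72.4 and 55.0 CPM, after IgG RIT 44.7, 34.5 and 58.6 CPM and after CD45 RIT 944 and 1828 CPM. Every TBI and IgG RIT library lay below every untreated one, and both CD45 RIT libraries lay above all others. On the log2 scale the fitted difference from untreated was -2.58 for TBI, -3.14 for IgG RIT and 1.77 for CD45 RIT, so the 2 antibody treatments differed by 4.92 (CD45 minus IgG). The CD45 RIT libraries lay far apart, with replicate 2 the higher. Among TBI libraries, replicate 6 had the lowest value.

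Several marker groups moved with Cd63, and their part in its level was not tested. Markers of basophils, mast cells and eosinophils, cells that carry Cd63 in their granules, summed to 6912 to 9041 CPM in untreated libraries, 347 to 1652 after TBI, 20.6 to 467 after IgG RIT and 0.183 to 0.481 after CD45 RIT. All 8 of these markers had a count in each untreated library, and Fcer1a and Gata2 had none in either CD45 RIT library. Cd63 and these markers were thus both lower after TBI and IgG RIT, and parted after CD45 RIT, where Cd63 was at its highest. The stromal sums, like Cd63, were below untreated after TBI and IgG RIT and highest after CD45 RIT, and all 16 stromal markers had counts in every library.

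Tspan14 (ENSMUSG00000037824.6, chromosome 14, 40906445 to 40966807, minus strand), a TspanC8 member that carries Adam10 to the surface, held 65.5, 48.6, 59.7 and 63.1 CPM in untreated libraries. It held 74.7, 56.5, 77.6, 82.7 and 78.3 CPM after TBI, 20.7, 20.0 and 27.5 CPM after IgG RIT and 70.2 and 107 CPM after CD45 RIT. The 3 IgG RIT libraries lay below all others, TBI overlapped untreated, and both CD45 RIT libraries lay above the untreated ones. Fitted log2 differences from untreated were 0.32 for TBI, -1.38 for IgG RIT and 0.58 for CD45 RIT. The difference for CD45 RIT turned to -0.10 without scaling factors between libraries, and that between CD45 RIT and TBI (0.26) turned to -0.28 without them and to -0.22 without CD45 RIT replicate 2. The sign of those differences thus depends on the setting. The IgG RIT difference was negative under each alternative run for it. Those fits reuse the libraries by which Tspan14 was chosen, so this sign is a description and not a test.

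**Figure D1:**
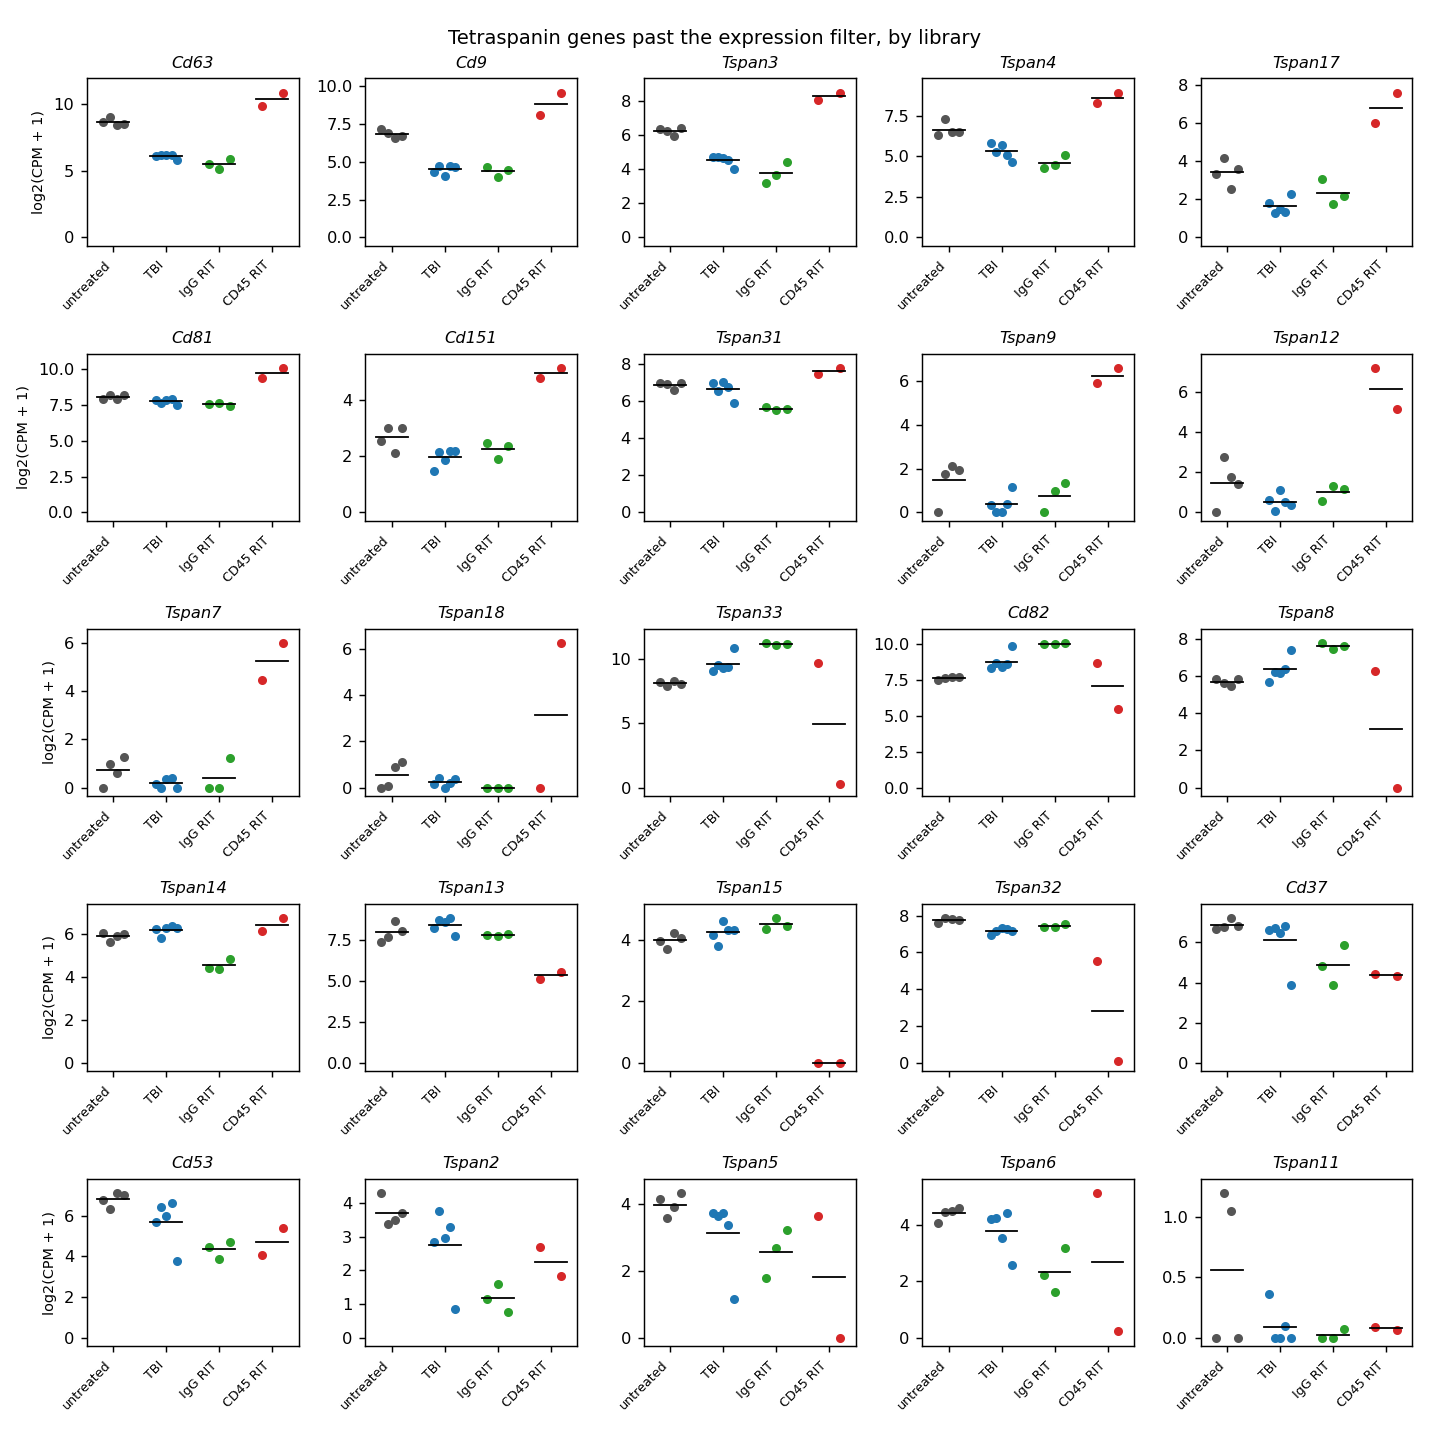
Level of the 25 tetraspanins above the filter in each of the 14 libraries, as log2(CPM + 1) on the vertical axis, with 1 panel per gene and the 4 treatment groups along the horizontal axis; each dot is 1 library and each bar a group mean. Cd63 and Cd9 are lowest after TBI and IgG RIT and highest after CD45 RIT, Tspan33 and Cd82 are highest after IgG RIT, and the 2 CD45 RIT libraries part widely for Tspan33 and Tspan8.

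Of the 23 members tested beside Cd63 and Tspan14, 4 passed after TBI, all lower, at a Benjamini-Hochberg adjusted p under 0.05 in edgeR's quasi-likelihood test over 21509 genes. Of all genes tested, 4.31% passed in that comparison, 0.921% higher and 3.38% lower. After IgG RIT 7 of the 23 passed, 1 higher and 6 lower, against 16.4% of all genes (5.75% higher, 10.7% lower). After CD45 RIT 15 passed, 11 higher and 4 lower, against 33.1% of all genes (14.5% higher, 18.6% lower). Since the family was picked with these contrasts in view, nothing is read from the counts beside the shares. The median log2 difference from untreated over the 23 was -0.83 for TBI, -1.31 for IgG RIT and 0.56 for CD45 RIT. Over all genes tested it was -0.16, -0.42 and -0.37. The 3 comparisons share the untreated libraries. After IgG RIT, DESeq2 called 11 of the 23 (25.4% of all genes), with Cd37, Tspan15, Tspan18 and Tspan33 beside the 7 of edgeR, and without scaling factors edgeR called Cd37, Cd81 and Tspan17 beside them (23.5% of all genes). After CD45 RIT, DESeq2 called 16 (40.4% of all genes), with Tspan32 beside the 15. Without scaling factors edgeR called 14 after CD45 RIT (36.7% of all genes), 9 of them higher, where 22.7% of all genes called were higher. After IgG RIT 1 of its 10 calls without scaling factors was higher, where 14.5% of all genes called were. Between the 2 antibodies, 14 of the 23 differed, 11 higher and 3 lower after CD45 RIT, where 37.7% of all genes (20.2% higher, 17.5% lower) did. Between CD45 RIT and TBI, 14 differed, 11 of them higher after CD45 RIT, against 38.6% of all genes (19.6% higher, 19% lower). Without scaling factors 15 differed there (41.5% of all genes), 10 of them higher, where 33.6% of all genes called were higher. Between IgG RIT and TBI none of the 23 passed in edgeR, 8 had an unadjusted p under 0.05 and 0.242% of all genes passed. DESeq2 called 3 members and 9.41% of all genes. Leaving out TBI replicate 6 raised the edgeR count to 4, Tspan2, Cd53, Cd37 and Tspan31, all lower after IgG RIT, and the share over all genes to 9.44%.

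**Figure D2:**
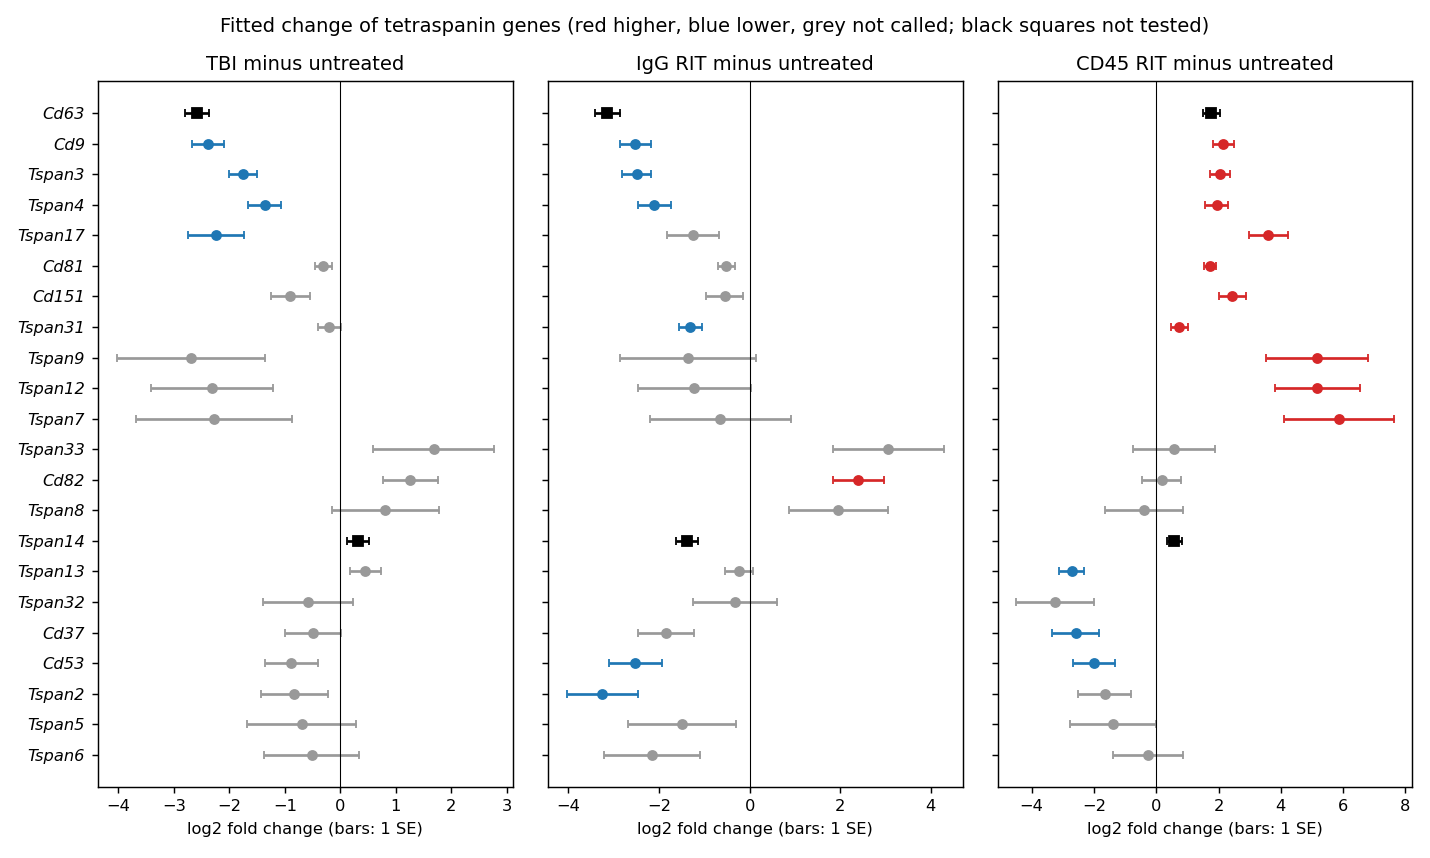
Fitted log2 fold change from untreated (horizontal axis) of the tetraspanins drawn (vertical axis) after TBI, IgG RIT and CD45 RIT; points are edgeR estimates and bars 1 standard error, red for higher, blue for lower and grey for not past the test, with Cd63 and Tspan14 as untested black squares. Tspan11, Tspan15 and Tspan18, whose fold changes rest on groups with 0 or nearly 0 counts, are not drawn; the points for Cd9, Cd63, Tspan3 and Tspan4 lie left of 0 after TBI and IgG RIT and right of it after CD45 RIT.

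Among the broadly expressed surface tetraspanins, Cd9, a partner of integrins that is also needed for fusion of egg and sperm, was low and high in the same groups as Cd63. It held 147, 119, 95.8 and 103 CPM in untreated libraries, 19.2, 25.8, 16.0, 25.6 and 24.4 after TBI, 24.0, 15.1 and 21.5 after IgG RIT and 276 and 758 after CD45 RIT. No untreated library overlapped a treated one. Cd9 fell after TBI (log2 fold change -2.39 ± 0.28, with its standard error, adjusted p = 0.00136). It likewise fell after IgG RIT (-2.52 ± 0.35, adjusted p = 0.00186), and rose after CD45 RIT (2.15 ± 0.34, adjusted p = 6.85e-04). A non-coding transcript on the opposite strand, Gm26728, shares 218 exon bases with Cd9, and the use of strand in counting is not given in the sources used here.

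Cd81, part of the B cell co-receptor, held 244, 289, 238 and 285 CPM in untreated libraries, 224, 193, 230.0, 241 and 179 after TBI, 185, 199.6 and 170.5 after IgG RIT and 669 and 1073 after CD45 RIT. The CD45 RIT libraries stood clear of the other groups, which lay close together. The rise after CD45 RIT was 1.72 ± 0.20 on the log2 scale (adjusted p = 6.21e-05), and the differences after TBI (-0.31, adjusted p = 0.34) and IgG RIT (-0.51, adjusted p = 0.0735) did not pass. Cd151, which binds laminin-binding integrins, held 4.74, 7.06, 3.37 and 7.07 CPM in untreated libraries, 1.77, 3.46, 2.67, 3.49 and 3.52 after TBI, 4.58, 2.69 and 4.10 after IgG RIT and 26.5 and 34.1 after CD45 RIT. It too rose after CD45 RIT only among the 3 comparisons with untreated (2.45 ± 0.44, adjusted p = 0.00141).

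Cd82, a metastasis suppressor also tied to stem cell quiescence, took another order. It held 178, 199, 203 and 209 CPM in untreated libraries, 319, 400.4, 328, 384 and 934 after TBI, 1009, 1038 and 1063 after IgG RIT and 402 and 42.7 after CD45 RIT. All TBI and IgG RIT libraries lay above the untreated ones, and the CD45 RIT libraries fell on either side of them. The rise passed after IgG RIT (2.39 ± 0.56, adjusted p = 0.0146) and not after TBI (1.26 ± 0.50, adjusted p = 0.196). Fitted on library numbers 1 to 9 alone, which hold the 4 untreated and 4 of the TBI libraries and not TBI replicate 6, the TBI difference was smaller and its spread narrower, and it passed (0.96 ± 0.12, adjusted p = 3.36e-04). In that fit 21.8% of all genes tested were called. Leaving out TBI replicate 6 alone, with both antibody groups kept in the fit, it did not pass (0.86 ± 0.46, adjusted p = 0.422), and 3.85% of all genes were called. Cd82 was lower after CD45 RIT than after IgG RIT (-2.22 ± 0.72, adjusted p = 0.03), a call lost without any 1 of IgG RIT replicates 1, 2 and 3 and CD45 RIT replicate 2 (adjusted p from 0.0513 to 0.0588).

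Within the TspanC8 subgroup, Tspan33, a gene of erythroid precursors, had the highest level per length in the untreated, TBI and IgG RIT groups. It was named after its values were seen, since edgeR called it in none of the 6 comparisons. It held 286, 242, 316 and 263 CPM in untreated libraries and 524, 730.0, 624, 671 and 1881 after TBI, where replicate 6 stood apart. It held 2396, 2209.7 and 2318 CPM after IgG RIT and 819 and 0.192 after CD45 RIT, the last from 4 counts. The untreated libraries lay below all TBI and IgG RIT libraries, yet neither difference passed in edgeR (TBI 1.68 ± 1.09, adjusted p = 0.478; IgG RIT 3.06 ± 1.22, adjusted p = 0.105). DESeq2 called it as higher after IgG RIT (3.26, adjusted p = 0.0245) and not after TBI (1.84, adjusted p = 0.31). Without TBI replicate 6 the TBI difference did not pass (1.20 ± 1.11, adjusted p = 0.732), while on library numbers 1 to 9 alone it did (1.30 ± 0.14, adjusted p = 1.58e-04). The erythroid sum was high where Tspan33 and Cd82 were high, in IgG RIT and TBI replicate 6, and its part in their levels was not tested. Both CD45 RIT libraries departed from this. Replicate 1 had the highest erythroid sum of all 14 libraries, while its Tspan33 and Cd82 levels were below those of every IgG RIT library and of TBI replicate 6. Replicate 2 had more erythroid counts than any untreated library, while Tspan33 was near 0 and Gata1 and Klf1 were at 0.

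Tspan15, the TspanC8 member that directs Adam10 to N-cadherin, held 14.5, 12.2, 17.7 and 15.8 CPM in untreated libraries, 17.0, 13.0, 23.7, 19.0 and 18.9 after TBI and 19.7, 25.3 and 21.0 after IgG RIT. Both CD45 RIT libraries had 0 counts, so all others lay above them. Set against 3 counts in each of the 2 libraries, the highest level that a count of 0 allows, CD45 RIT was at least 92.0-fold lower than untreated, 134-fold lower than IgG RIT and 112-fold lower than TBI (adjusted p = 3.53e-06, 2.00e-06 and 1.02e-06). Such limits cover counting error alone.

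Tspan17 moved the other way. This TspanC8 member held 9.04, 16.8, 4.84 and 11.2 CPM in untreated libraries, 2.55, 1.42, 1.86, 1.49 and 3.80 after TBI, 7.30, 2.39 and 3.52 after IgG RIT and 63.2 and 192 after CD45 RIT. All TBI libraries lay below the untreated ones and both CD45 RIT libraries above them. It fell after TBI (-2.24 ± 0.50, adjusted p = 0.0261) and rose after CD45 RIT (3.60 ± 0.61, adjusted p = 0.00103). The TBI call was lost without any 1 of untreated replicates 1, 2 and 4 and TBI replicates 1, 3, 4 and 5 (adjusted p from 0.0511 to 0.0892).

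Tspan5, the remaining TspanC8 member above the filter, ran from 11.0 to 19.2 CPM in untreated libraries, 1.22 to 12.5 after TBI and 2.49 to 8.36 after IgG RIT, and CD45 RIT replicate 2 had 0 counts where replicate 1 had 191. In edgeR it passed in none of the 3 comparisons with untreated (adjusted p = 0.812, 0.408 and 0.44), but did as lower after CD45 RIT without replicate 1 (adjusted p = 7.93e-04). The TspanC8 genes thus did not share 1 order of the groups: Tspan14 and Tspan17 had higher means after CD45 RIT than after IgG RIT, Tspan15 was at 0 after CD45 RIT, and Tspan33 had its highest levels after IgG RIT.

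Their shared cargo, Adam10, which cuts Notch receptors and cadherins, rose in each treated group. Its mean level, with the SD over libraries, was 113 ± 22.6 CPM (n = 4) in untreated libraries, 259.6 ± 77.1 (n = 5) after TBI, 325 ± 20.2 (n = 3) after IgG RIT and 217 ± 101 (n = 2) after CD45 RIT. The log2 fold changes were 1.20 ± 0.25 (adjusted p = 0.0211), 1.52 ± 0.28 (adjusted p = 0.00534) and 0.94 ± 0.31 (adjusted p = 0.036). The TBI call was lost without untreated replicate 2 or 4 (adjusted p from 0.0628 to 0.0773). The CD45 RIT call was lost without any 1 of untreated replicates 2 and 4 and CD45 RIT replicate 1 (adjusted p from 0.0696 to 0.392), and without scaling factors the difference fell to 0.21. Of the 8 genes listed as Adam10 and receptors it cleaves, 1 rose and 1 fell after TBI, 1 rose and 2 fell after IgG RIT and 4 rose after CD45 RIT, against 4.31%, 16.4% and 33.1% of all genes tested. Notch1 was lower after IgG RIT (-3.59, adjusted p = 0.0173). Cdh2, the N-cadherin gene, was higher after CD45 RIT (328 ± 227 against 10.2 ± 4.43 CPM, log2 fold change 5.01, adjusted p = 5.98e-04), where its Adam10 escort Tspan15 was at 0. Notch3 (3.12, adjusted p = 0.00806) and Notch2 (2.54, adjusted p = 0.0299) were also higher after CD45 RIT. The Notch3 call was lost without CD45 RIT replicate 1 (adjusted p = 0.197), and that of Notch2 without any 1 of untreated replicates 2, 3 and 4 and CD45 RIT replicate 2 (adjusted p from 0.0677 to 0.425).

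Of the tetraspanins of blood cells, Cd53, found on most leukocytes, held 108, 79.7, 136 and 129.5 CPM in untreated libraries, 50.8, 84.0, 62.9, 97.2 and 12.6 after TBI, 20.7, 13.7 and 24.7 after IgG RIT and 15.5 and 41.3 after CD45 RIT. Both antibody groups lay below all untreated libraries, and the TBI libraries ran from the untreated range down to replicate 6, which sat with the antibody groups. It fell after IgG RIT (-2.52 ± 0.59, adjusted p = 0.0143) and after CD45 RIT (-2.00 ± 0.68, adjusted p = 0.0388). The first call was lost without IgG RIT replicate 1 or 2 (adjusted p from 0.053 to 0.0623), and the second without any 1 of untreated replicates 1, 3 and 4 and CD45 RIT replicate 1 (adjusted p from 0.0555 to 0.146) or with size factors from relative log expression (adjusted p = 0.0678). Cd37, a mainly B cell tetraspanin, held 102, 109.9, 148 and 111 CPM in untreated libraries, 98.6, 105, 88.4, 114 and 13.5 after TBI, 27.2, 13.5 and 58.0 after IgG RIT and 20.2 and 19.0 after CD45 RIT. In edgeR it passed as lower after CD45 RIT (-2.58 ± 0.75, adjusted p = 0.0208), a call lost without CD45 RIT replicate 2 (adjusted p = 0.0617). After IgG RIT it did not pass there (-1.84 ± 0.62, adjusted p = 0.06), but did in DESeq2 (-1.64, adjusted p = 0.0299), without scaling factors (-2.37, adjusted p = 0.0256), with the replicate number as a block (-2.03, adjusted p = 0.0201) and without IgG RIT replicate 3 (-2.53, adjusted p = 0.0378). TBI replicate 6 was low for Cd37 and Cd53 alike, at the level of the antibody groups.

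Haematopoietic and neutrophil sums were below untreated in every treated library, as the Cd53 and Cd37 levels were in most, and their part in the differences was not tested. The 12 haematopoietic markers summed to 2165 to 2351 CPM in untreated libraries, 205 to 977 after TBI, 212 to 441 after IgG RIT and 229 to 280.4 after CD45 RIT, where Cd34 had 0 counts in both libraries. The 12 neutrophil markers summed to 8955 to 10519, 109 to 1025, 754 to 961 and 7.44 to 18.9 CPM in the same order, and Ly6g, Ngp and Retnlg were at 0 in both CD45 RIT libraries. Of the 12, 4 fell after TBI, 4 fell after IgG RIT and 7 fell after CD45 RIT. Of all genes tested, 4.31%, 16.4% and 33.1% passed, and 3.38%, 10.7% and 18.6% passed as lower. The median log2 difference of the 12 was -0.69, 1.51 and -7.30, positive after IgG RIT although the sum was lower. The 8 B lineage markers summed to 489 to 1681, 254 to 2283, 157 to 551 and 504 to 537 CPM. Their sums, unlike their median difference after CD45 RIT, did not follow Cd53 or Cd37 after TBI or CD45 RIT. All TBI libraries but replicate 6 had B lineage sums above those of 3 of the 4 untreated libraries, and both CD45 RIT libraries lay within the untreated range. The median log2 difference of these markers was 0.61 after TBI, -1.62 after IgG RIT and -2.26 after CD45 RIT. After CD45 RIT 3 of the 8 passed as lower in edgeR, where 33.1% of all genes tested passed (18.6% lower), and DESeq2 called 5. The B lineage markers Pax5 and Ms4a1 were at 0 in both CD45 RIT libraries.

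Tspan32, a haematopoietic tetraspanin, was low in both CD45 RIT libraries. It held 194, 233, 222 and 217 CPM in untreated libraries, 123 to 163 after TBI, 168 to 183 after IgG RIT, and 45.9 and 0.0481 after CD45 RIT, the last from 1 count. In edgeR over all libraries it passed in none of the 3 comparisons with untreated (CD45 RIT -3.24 ± 1.25, adjusted p = 0.0642). The difference after CD45 RIT passed as lower in DESeq2 (-3.08, adjusted p = 0.0159), without scaling factors (-4.01, adjusted p = 0.0293), and without CD45 RIT replicate 1 (adjusted p = 5.70e-09) or replicate 2 (-2.27, adjusted p = 1.81e-05). Its TBI difference did not pass without TBI replicate 6 (-0.57 ± 0.90, adjusted p = 0.887) and passed as lower on library numbers 1 to 9 alone (-0.48 ± 0.11, adjusted p = 0.0112). Tspan9, a platelet and megakaryocyte tetraspanin, was scarce outside CD45 RIT: it held 0.0262, 2.42, 3.37 and 2.88 CPM in untreated libraries, 0.248, 0, 0, 0.305 and 1.22 after TBI, 0, 0.946 and 1.58 after IgG RIT and 59.2 and 97.2 after CD45 RIT. The rise after CD45 RIT was 5.17 ± 1.63 (adjusted p = 0.0294), a call lost without any 1 of untreated replicates 2, 3 and 4 and CD45 RIT replicate 2 (adjusted p from 0.0512 to 0.0666). Megakaryocyte and platelet markers did not follow Tspan9. They summed to 263 to 337 CPM in untreated libraries and 50.0 to 258 after CD45 RIT, and Gp1ba, Gp1bb and Treml1 had 0 counts in both CD45 RIT libraries.

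Among the other members, Tspan3 and Tspan4 were low and high in the same groups as Cd63 and Cd9. Tspan3, known from propagation of acute myeloid leukaemia, held 81.6, 76.0, 59.9 and 85.3 CPM in untreated libraries, 25.7, 25.2, 23.9, 22.2 and 15.1 after TBI, 8.28, 11.7 and 20.3 after IgG RIT and 267 and 356 after CD45 RIT. No treated library overlapped an untreated one. It fell after TBI (-1.75 ± 0.26, adjusted p = 0.00335) and IgG RIT (-2.50 ± 0.32, adjusted p = 0.00181) and rose after CD45 RIT (2.04 ± 0.32, adjusted p = 5.65e-04). Tspan4, a component of the migrasomes that moving cells leave behind, held 79.9, 156, 88.9 and 89.7 CPM in untreated libraries, 55.3, 38.0, 50.1, 32.8 and 24.5 after TBI, 18.1, 20.8 and 33.6 after IgG RIT and 316 and 483 after CD45 RIT. It fell after TBI (-1.37 ± 0.30, adjusted p = 0.0235) and IgG RIT (-2.10 ± 0.36, adjusted p = 0.00408) and rose after CD45 RIT (1.95 ± 0.37, adjusted p = 0.00198). The TBI call was lost without any 1 of untreated replicate 2 and TBI replicates 3 and 5 (adjusted p from 0.0593 to 0.0842). Chid1, on the opposite strand, shares 292 exon bases (13.4%) with Tspan4, and it rose after CD45 RIT by less (0.96, adjusted p = 0.0137).

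Tspan31, a gene amplified in some sarcomas, held 124, 120.5, 95.7 and 122 CPM in untreated libraries, 121, 92.5, 125, 105 and 58.9 after TBI, 50.1, 44.0 and 45.9 after IgG RIT and 171 and 216 after CD45 RIT. The IgG RIT libraries were the lowest and the CD45 RIT libraries the highest. It fell after IgG RIT (-1.31 ± 0.25, adjusted p = 0.00544). After CD45 RIT it passed narrowly (0.74 ± 0.26, adjusted p = 0.0448), and the call was lost without any 1 of untreated replicates 1, 2, 3 and 4 and CD45 RIT replicate 2 (adjusted p from 0.0618 to 0.162), and without scaling factors (0.06, adjusted p = 0.907). Tspan31 shares 641 exon bases (29.2% of its length) with Cdk4 on the opposite strand, and reads from the 2 genes may not be separable there. Cdk4 fell after IgG RIT too (-1.14, adjusted p = 0.0122) and fell after CD45 RIT (-1.66, adjusted p = 0.00172), the opposite sign to Tspan31.

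Tspan2, a tetraspanin of oligodendrocytes, held 18.6, 9.46, 10.3 and 11.9 CPM in untreated libraries, 6.23, 12.6, 6.87, 8.74 and 0.79 after TBI, 1.22, 2.04 and 0.683 after IgG RIT and 5.43 and 2.55 after CD45 RIT. All RIT libraries lay below the untreated ones. The fall passed after IgG RIT (-3.25 ± 0.79, adjusted p = 0.017), and was lost without IgG RIT replicate 1 or 3 (adjusted p from 0.0602 to 0.0661). Tspan13, one of the highest members per length in untreated libraries, held 167, 207, 403 and 263 CPM in untreated libraries, 303, 426, 389, 453 and 208 after TBI and 219, 211 and 233 after IgG RIT. It fell to 33.8 and 45.7 CPM after CD45 RIT (-2.71 ± 0.40, adjusted p = 4.41e-04) and kept that call without any 1 library. It was also lower there than after IgG RIT (-2.47 ± 0.41, adjusted p = 6.47e-04).

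A set of members was scarce in every group but CD45 RIT. Tspan12, which helps the Norrin receptor Fzd4 signal in vessels, held 0, 5.69, 2.44 and 1.63 CPM in untreated libraries, 0.531, 0.0346, 1.15, 0.441 and 0.287 after TBI, 0.463, 1.44 and 1.21 after IgG RIT and 143 and 33.8 after CD45 RIT (5.18 ± 1.38 against untreated, adjusted p = 0.0133). Fzd4 rose with it, from a mean of 0.453 ± 0.609 to 223 ± 15.9 CPM (8.91, adjusted p = 9.05e-04). It was the 1 gene of 3 tested in the Tspan12 receptor complex list to pass, where 33.1% of all genes tested passed. Tspan7, a gene mutated in X-linked intellectual disability, held 0, 0.988, 0.501 and 1.39 CPM in untreated libraries, 0.106, 0, 0.286, 0.305 and 0 after TBI, 0, 0 and 1.37 after IgG RIT and 21.2 and 62.9 after CD45 RIT (5.87 ± 1.76, adjusted p = 0.0232). Its call was lost without any 1 of untreated replicates 2 and 3 and CD45 RIT replicate 2 (adjusted p from 0.0524 to 0.059). Both genes stood clear of all other libraries in both CD45 RIT replicates.

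Tspan18, which supports the calcium channel Orai1 in endothelium, rested on 1 library. It held 0, 0.0599, 0.835 and 1.18 CPM in untreated libraries, 0.106, 0.346, 0, 0.136 and 0.287 after TBI and 0 counts in all 3 IgG RIT libraries, and CD45 RIT replicate 1 had 0 counts where replicate 2 had 1546 (74.4 CPM). The fitted rise after CD45 RIT (6.16 ± 2.08, adjusted p = 0.043) turned to -6.62 without replicate 2 (adjusted p = 0.237). That against TBI (7.71 ± 2.03, adjusted p = 0.0131) turned to -5.23 (adjusted p = 0.328). Of its channel list, Orai1 fell after IgG RIT (-2.05, adjusted p = 0.0309) and Stim1 rose after CD45 RIT (1.38, adjusted p = 0.00419). Orai1 lost its call without any 1 of untreated replicates 1, 2 and 3 and IgG RIT replicates 1, 2 and 3 (adjusted p from 0.0561 to 0.106).

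Tspan6, Tspan8 and Tspan11 passed in none of the 3 comparisons with untreated, in edgeR or DESeq2, with all 14 libraries. Without CD45 RIT replicate 1, Tspan6 (adjusted p = 5.75e-04) and Tspan8 (adjusted p = 3.98e-06) passed as lower after CD45 RIT. Tspan8, found on carcinoma exosomes and named here after its values were seen, held 42.9 to 55.6 CPM in untreated libraries, 49.8, 73.8, 71.3, 82.0 and 164 after TBI, 216, 175 and 196 after IgG RIT and 76.6 and 0 after CD45 RIT. As for Tspan33 and Cd82, its IgG RIT libraries were the highest, TBI replicate 6 was the highest of its group and CD45 RIT replicate 2 the lowest of all, but TBI replicate 1 lay within the untreated range. Its TBI difference was 0.81 ± 0.97 (adjusted p = 0.763) over all 14 libraries and 0.46 ± 1.02, adjusted p = 0.93 without TBI replicate 6, and it passed on library numbers 1 to 9 alone (0.55 ± 0.17, adjusted p = 0.0434). Tspan6, an inhibitor of RIG-I-like receptor signalling, ran over 15.9 to 23.1 CPM in untreated libraries, 5.03 to 20.3 after TBI and 2.04 to 8.04 after IgG RIT, and had 553 and 4 counts in the CD45 RIT libraries. Tspan11 stayed at or under 1.29 CPM in every library.

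The CD45 RIT libraries disagreed for several members. Tspan5, Tspan6, Tspan8, Tspan32 and Tspan33 had 4 counts or fewer in replicate 2 and 191 or more in replicate 1, and Tspan18 did the reverse. Without replicate 1 the number of the 23 members that differed from untreated was 20, where 48% of all genes tested did. Without replicate 2 it was 11, where 30.4% did. The lone library is assumed in these fits to vary like the other groups. Of the 15 in the full fit, 14 and 10 were shared. The rises of Cd9, Cd81, Cd151, Tspan3, Tspan4, Tspan12 and Tspan17 and the falls of Tspan13 and Tspan15 passed with either replicate alone. So did the lower level of Tspan32, which did not pass with both. The stromal sums of both CD45 RIT libraries lay above those of all others, Vcam1 had 57726 and 59214 counts there, and the part of such cells in these rises was not tested.

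**Figure D3:**
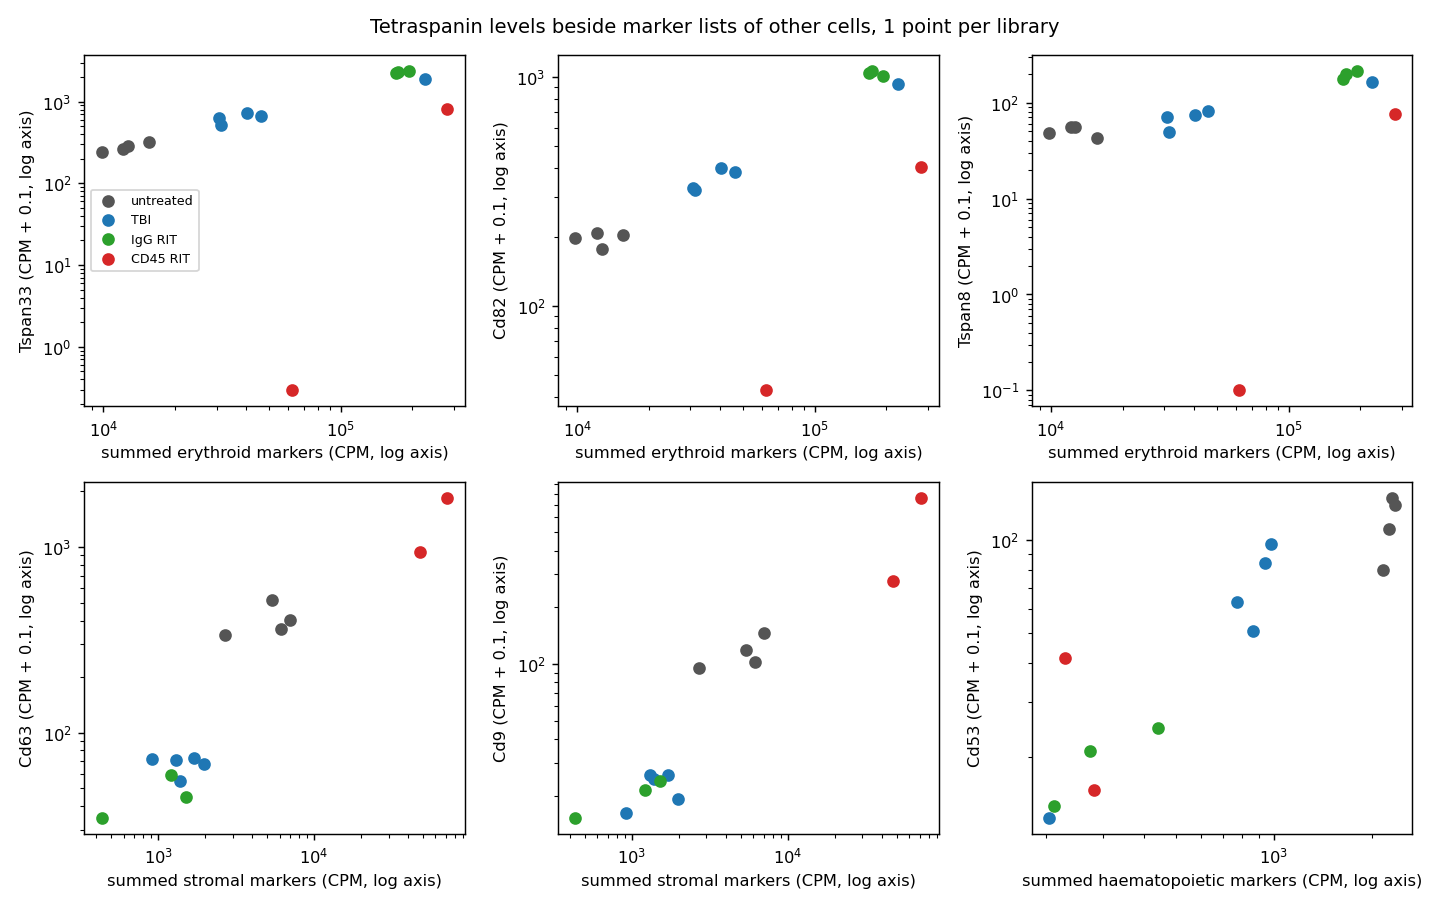
Level of 6 tetraspanins (vertical log axis, CPM + 0.1) against the summed level of a marker list (horizontal log axis, CPM), 1 dot per library, coloured by treatment group; Tspan33, Cd82 and Tspan8 are set against erythroid, Cd63 and Cd9 against stromal and Cd53 against haematopoietic markers. Tspan33 and Cd82 are high in the IgG RIT libraries and TBI replicate 6, which have high erythroid sums; CD45 RIT replicate 1 has the highest erythroid sum and lies below them for both genes, and CD45 RIT replicate 2 lies lowest for both; the CD45 RIT libraries have the highest stromal sums.

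Levels of different members were compared per kilobase of exon, as CPM per kb. By that measure Cd63 made up 13.6% of the summed tetraspanin level on average in untreated libraries (range 10.9 to 16.9%), ahead of Tspan13 (12.9%) and Cd81 (11.3%). Their ranges overlapped, and Tspan13 led in untreated replicates 3 and 4. After TBI the means were led by Tspan33 (19.7%) and Cd82 (18.4%), but Tspan13 led in replicates 1, 3, 4 and 5, and the order of the means rests on replicate 6. Tspan33 held 34.3% and Cd82 29.4% in that library. After IgG RIT Tspan33 led in all 3 libraries, with 36.6 to 38.5% of the family, and Cd82 came next with 28.0 to 30.5%, a range that did not overlap with the first. After CD45 RIT Cd63 led in both libraries (17.9% and 25.8%), then Cd81 (16.2% and 19.4%), then Cd9 with a mean of 14.3%. TBI replicate 6 thus resembled IgG RIT in composition more than the other TBI libraries did. Its library number, 10, also lay next to the IgG RIT numbers, 11 to 13. The summed level of the family was 763 to 837 CPM per kb in untreated libraries, 672 to 1056 after TBI, 1132 to 1219 after IgG RIT and 1432 to 1922 after CD45 RIT. Both antibody groups lay above all untreated and TBI libraries.

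**Figure D4:**
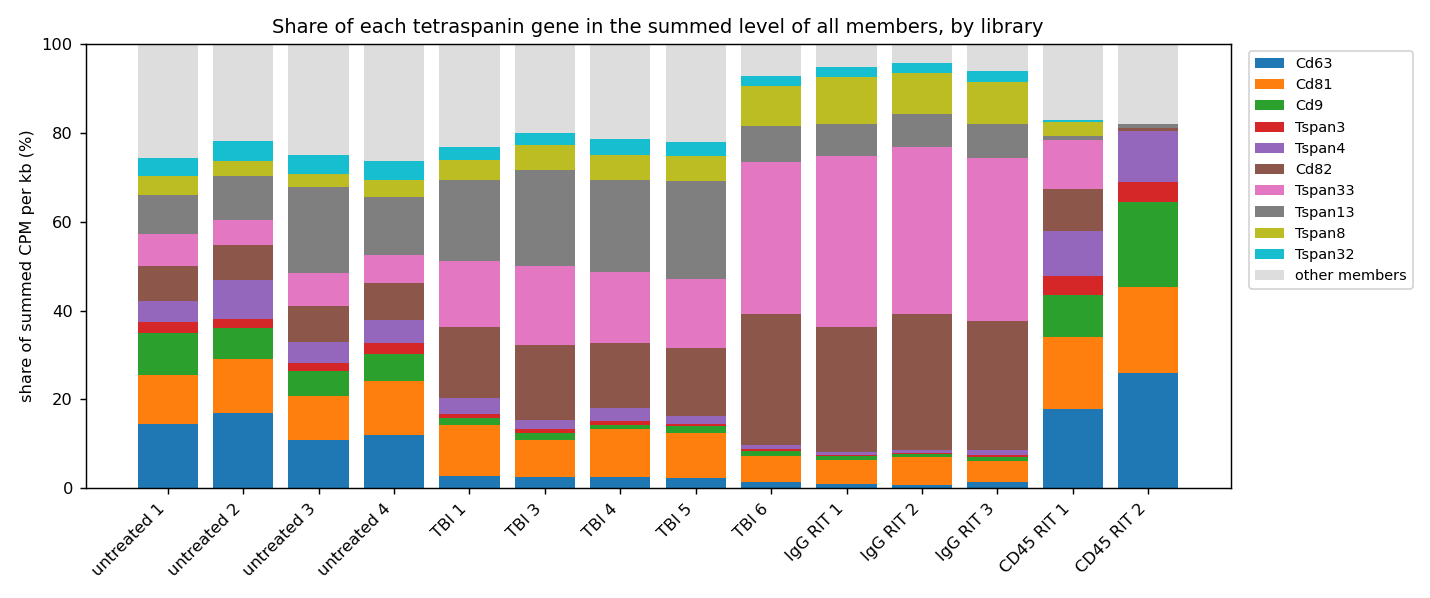
Share of the summed tetraspanin level per kilobase of exon (vertical axis, percent) held by the leading members in each of the 14 libraries (horizontal axis), stacked by gene. Cd63 is the largest share in both CD45 RIT libraries, Tspan33 and Cd82 are the 2 largest in TBI replicate 6 and the IgG RIT libraries, and TBI replicates 1, 3, 4 and 5 are led by Tspan13.

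Genes that work with Cd63 were read from lists of its ligands and of the compartments it marks. The Timp family holds metalloproteinase inhibitors, of which Timp1 binds Cd63 at the surface. Of 4 Timps, 3 fell after TBI, 1 fell after IgG RIT and 4 rose after CD45 RIT, against 4.31%, 16.4% and 33.1% of all genes tested. Timp1 had a mean of 9.58 ± 3.67 CPM in untreated libraries, 2.20 ± 0.925 after TBI (-2.13, adjusted p = 0.0115), 4.26 ± 1.36 after IgG RIT (-1.17, adjusted p = 0.1) and 191 ± 106 after CD45 RIT (4.31, adjusted p = 7.39e-05). Timp2 fell after TBI (-2.19, adjusted p = 0.0272) but rose after CD45 RIT (4.78, adjusted p = 1.84e-04), and Timp4 was higher after CD45 RIT (4.82, adjusted p = 0.00791). The TBI call of Timp2 was lost without any 1 of untreated replicates 1, 2 and 4 and TBI replicates 1, 3, 4 and 5 (adjusted p from 0.0546 to 0.0841).

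Of 17 genes of vesicle formation, 3 fell after TBI, 3 fell after IgG RIT and 5 rose and 1 fell after CD45 RIT, against 4.31%, 16.4% and 33.1% of all genes tested. The syndecans, whose cytoplasmic tails recruit syntenin to budding vesicles, stood among them. Sdc2 fell after TBI (-2.51, adjusted p = 0.0098) and IgG RIT (-1.99, adjusted p = 0.0263) and rose after CD45 RIT (4.47, adjusted p = 1.45e-04). Sdc3 fell after TBI (-2.43, adjusted p = 0.0114) and rose after CD45 RIT (4.28, adjusted p = 1.90e-04), and Sdc1 fell after TBI (-1.96, adjusted p = 0.0452). Rab27a, a GTPase of secretory granules, fell after IgG RIT (-3.42, adjusted p = 0.0217), and it fell after CD45 RIT to 0 counts in replicate 1 and 1 in replicate 2, against a mean of 26.7 ± 8.08 CPM in untreated libraries (adjusted p = 6.64e-04). Vps4b, an ATPase of endosomal sorting, fell after IgG RIT (-1.08, adjusted p = 0.0284), and Smpd3, a neutral sphingomyelinase, was higher after CD45 RIT (3.89, adjusted p = 0.00524). Calls were lost for Sdc1 without any 1 of untreated replicates 1, 2, 3 and 4 and TBI replicates 3, 4, 5 and 6 (adjusted p from 0.0633 to 0.121), and for Sdc2 after IgG RIT without any 1 of untreated replicates 2 and 4 and IgG RIT replicates 1 and 2 (adjusted p from 0.0516 to 0.078). The same held for Rab27a after IgG RIT without IgG RIT replicate 2 or 3 (adjusted p from 0.0692 to 0.0773), for Vps4b without any 1 of untreated replicates 1, 3 and 4 and IgG RIT replicates 2 and 3 (adjusted p from 0.0507 to 0.101), and for Smpd3 without CD45 RIT replicate 2 (adjusted p = 0.184).

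Late endosomes and lysosomes, where Cd63 is a resident protein, were represented by 23 genes, of which 5 fell after TBI, 2 rose and 11 fell after IgG RIT and 15 rose and 1 fell after CD45 RIT, against 4.31%, 16.4% and 33.1% of all genes tested. The median log2 difference of the list was -0.48, -0.96 and 1.28 in that order, against -0.16, -0.42 and -0.37 over all genes tested. Lamp1, the main lysosomal membrane glycoprotein, averaged 300.0 ± 20.6 CPM in untreated libraries, 276 ± 19.2 after TBI (-0.12, adjusted p = 0.74), 299 ± 23.7 after IgG RIT (-0.01, adjusted p = 0.986) and 1136 ± 299 after CD45 RIT (1.92, adjusted p = 9.31e-06). The genes of Laptm4b, hexosaminidase A (Hexa) and progranulin (Grn) fell after TBI (-2.64, -2.05 and -1.89, adjusted p = 0.00575, 0.00216 and 0.00187). They fell after IgG RIT as well (-2.26, -2.45 and -1.72, adjusted p = 0.0131, 0.00184 and 0.00372). The proteases cathepsin B and D moved against the list after IgG RIT: Ctsb rose from a mean of 538 ± 57.1 to 2500.0 ± 277 CPM (2.22, adjusted p = 0.00534) and Ctsd from 212 ± 22.1 to 435 ± 48.7 CPM (1.04, adjusted p = 0.00963), the latter lost without scaling factors (0.51, adjusted p = 0.0738). After CD45 RIT the genes that rose included Ctsl (2.61, adjusted p = 2.31e-04) and Laptm4a (2.37, adjusted p = 1.02e-05), and the calcium channel Mcoln1 fell (-1.56, adjusted p = 0.0258), a call lost without untreated replicate 1 or CD45 RIT replicate 2 (adjusted p from 0.0516 to 0.149).

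Integrins and immunoglobulin-domain proteins are the surface partners of Cd9, Cd81 and Cd151. Of 8 integrin subunits tested, 0 passed after TBI, 1 fell after IgG RIT and 3 rose after CD45 RIT, against 4.31%, 16.4% and 33.1% of all genes tested. After TBI 3 of the 8 had an unadjusted p under 0.05 in edgeR and DESeq2 called 2. The shared beta subunit Itgb1 rose after CD45 RIT from a mean of 199 ± 28.7 to 802 ± 327 CPM (2.01, adjusted p = 3.57e-05). Itga3, the laminin-binding partner of Cd151, rose with it (4.40, adjusted p = 0.00675), a call lost without CD45 RIT replicate 2 (adjusted p = 0.44), and so did Itgb3 (2.97, adjusted p = 0.00379). Itga5 fell after IgG RIT (-1.52, adjusted p = 0.029), lost without any 1 of untreated replicates 1, 3 and 4 and IgG RIT replicates 1, 2 and 3 (adjusted p from 0.0532 to 0.11). Of 5 immunoglobulin-domain and co-receptor genes, 0 passed after TBI, 1 fell after IgG RIT and 1 rose after CD45 RIT, against 4.31%, 16.4% and 33.1% of all genes tested. After TBI 2 of the 5 had an unadjusted p under 0.05 in edgeR and DESeq2 called 0. Igsf8, a direct partner of Cd9 and Cd81, fell after IgG RIT (-1.97, adjusted p = 0.0246), lost without any 1 of untreated replicate 4 and IgG RIT replicates 1 and 2 (adjusted p from 0.0526 to 0.0951). Igsf3 rose after CD45 RIT (281 ± 71.3 against 25.7 ± 6.16 CPM, 3.45, adjusted p = 1.12e-05).

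Compared directly, the 2 antibody treatments differed for Cd9, Tspan3 and Tspan4, which had fallen after IgG RIT and risen after CD45 RIT. Cd9 was 4.68 ± 0.41 higher on the log2 scale after CD45 RIT than after IgG RIT (adjusted p = 9.58e-06), Tspan3 4.53 ± 0.37 (adjusted p = 6.67e-06) and Tspan4 4.05 ± 0.43 (adjusted p = 3.23e-05). Tspan17 (4.85 ± 0.72, adjusted p = 3.03e-04), Cd151 (3.00 ± 0.49, adjusted p = 5.76e-04), Cd81 (2.23 ± 0.22, adjusted p = 1.63e-05) and Tspan31 (2.05 ± 0.28, adjusted p = 1.69e-04) were also higher. So were Tspan7, Tspan9, Tspan12 and Tspan18, with log2 differences of 6.51, 6.52, 6.40 and 12.84 (adjusted p = 0.0258, 0.0206, 0.00957 and 0.0148). That of Tspan7 was lost without any 1 of IgG RIT replicates 1 and 2 and CD45 RIT replicate 2 (adjusted p from 0.0596 to 0.0651), that of Tspan9 without IgG RIT replicate 2 (adjusted p = 0.0613), and that of Tspan18 without CD45 RIT replicate 2 (adjusted p = 1). The Tspan18 value stands against a group with 0 counts in all libraries and is no measure of size. Against TBI the same 11 genes were higher after CD45 RIT, and Cd37 (-2.10, adjusted p = 0.0365), Tspan13 (-3.16, adjusted p = 9.32e-05) and Tspan15 were lower. The Cd37 call against TBI was lost without any 1 of TBI replicates 1, 3, 4 and 5 and CD45 RIT replicates 1 and 2 (adjusted p from 0.056 to 0.0917). Tspan31 against TBI (0.94, adjusted p = 0.0102) was lost without CD45 RIT replicate 2 (adjusted p = 0.0765). These comparisons share the CD45 RIT libraries with that against untreated.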

How the data were processed

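RNA of sorted marrow cells was amplified with SMART-Seq v4 and made into Nextera XT libraries, per the labels' protocols. The authors deposited whole-number counts per gene for the 14 libraries. The submitters' processing notes name STAR 2.7.7a, FastQC 0.11.9 and edgeR 3.36.0 and list a human build, although identifiers and coordinates are mouse. Of 55335 identifiers, 54587 matched GENCODE M21 (GRCm38), all with equal coordinates. The read counter and its use of strand are not given in the sources used here.

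Counts were fitted with edgeR 4.0.16 (R 4.3.3): filterByExpr with a minimum count of 10 and a total of 15 left 21509 genes, TMM factors scaled the libraries, and a robust quasi-likelihood model held 1 coefficient per group over all 14 libraries. p-values were adjusted by Benjamini-Hochberg within each of 6 contrasts over all genes tested and called at 0.05. CPM uses TMM-scaled totals, and CPM per kb the gene length in the file. Values after ± are standard errors of the fit for log2 fold changes and SDs over libraries for mean CPM. Floors (3 counts, 0.0786 to 0.215 CPM) cover counting error only. The procedure was tested on simulated data.

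The members, partner lists and marker lists were chosen with earlier results of these data known. Named partners were up to 3 called genes of largest size per list, comparison and direction with a mean of at least 8 CPM in the higher group, and Adam10, Timp1 and Lamp1; some genes are not reported here. Values in every library are given for Cd63, Tspan14 and each member called in a comparison with untreated or between antibodies. Alternatives were DESeq2 1.42.0, relative log expression factors, no scaling, no filter, a replicate block, library numbers 1 to 9 alone, and each library left out. Protein sequences were not used here.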

Additional observations from a re-analysis of the deposited data

Results flagged for a closer look

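Of 50 combinations of a member and a group of 4 or 5 libraries, 10 had a highest or lowest library set apart from the rest by more than Dixon's limit, which chance passes in about 1 of 20. In 7 of the 10 the library was TBI replicate 6. There Tspan33 stood at 1881 CPM where the other TBI libraries held 524 to 730.0, Cd82 at 934 against 319 to 400.4, Tspan8 at 164 against 49.8 to 82.0, and Tspan9 at 1.22 against 0 to 0.305. The same library was low for Cd37, at 13.5 CPM against 88.4 to 114, for Tspan5, at 1.22 against 9.46 to 12.5, and for Cd63, at 55.0 against 67.6 to 72.4. TBI replicate 1 was high for Tspan11, at 0.283 CPM against 0 to 0.0678. Among untreated libraries, replicate 3 was low for Tspan31, at 95.7 CPM against 120.5 to 124, and replicate 2 was high for Tspan4, at 156 CPM against 79.9 to 89.7.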

How the results depend on the processing

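Of 98 fold changes past the test, for members and named partners, DESeq2 kept all 98 and no alternative that kept all libraries turned a sign among them. Relative log expression factors ended 6 calls, no scaling 7, no filter on low counts 7 and the replicate block 38. Numbers of the 23 members called moved as follows. With the replicate block, TBI against untreated went from 4 to 0, while the share of all genes called went from 4.31% to 0.177%. CD45 RIT against IgG RIT went from 14 to 9 (all genes 37.7% to 23.7%). CD45 RIT against TBI went from 14 to 9 (38.6% to 17.5%) and CD45 RIT against untreated from 15 to 10 (33.1% to 18.9%). Same-numbered libraries deviated together little (13 pairs, correlations of deviations from the group means from -0.0896 to 0.139, 1 over 0.1). Such correlations cannot settle whether a number marks a shared animal or batch, and the labels do not say what it means. On library numbers 1 to 9 TBI gave 8 (21.8% of all genes), the 4 calls of the full fit among them. DESeq2 gave 11 for IgG RIT against untreated (25.4% of all genes), where edgeR gave 7 (16.4%). For IgG RIT against TBI DESeq2 gave 3 (9.41%) and edgeR 0 (0.242%). There no scaling gave 1 (0.944%) and leaving out TBI replicate 6 gave 4 (9.44%). Over all genes DESeq2 called 2405 for TBI against untreated and 5887 for IgG RIT against untreated, where edgeR called 926 and 3536. Leaving out 1 library at a time gave 2 to 4 members for TBI, 5 to 7 for IgG RIT and 10 to 20 for CD45 RIT against untreated, 11 to 19 and 12 to 19 for CD45 RIT against IgG RIT and TBI, and 0 to 4 for IgG RIT against TBI. Shares of all genes called ran from 2 to 3.85% for TBI and 8.29 to 12.1% for IgG RIT against untreated, and 0.00934 to 9.44% for IgG RIT against TBI. With both CD45 RIT libraries kept, they were 27.6 to 30.6% against untreated, 29.7 to 31.4% against IgG RIT and 32.7 to 38% against TBI. TBI against untreated fell to 2 without untreated replicate 2, TBI replicate 3 or TBI replicate 5 (2%, 2.51% and 2.17% of all genes). CD45 RIT against untreated fell to 10 without untreated replicate 3 (27.6%). With 1 library left out, the log2 difference of Tspan18 ran from -6.62 to 7.16 against untreated and from -5.23 to 8.70 against TBI, negative without CD45 RIT replicate 2. Signs turned for Tspan14 with no scaling (-0.10 against untreated, -0.28 against TBI) and without CD45 RIT replicate 2 (against TBI, range with 1 library left out -0.22 to 0.52). No scaling moved the median of all genes to -0.28 for TBI, -0.94 for IgG RIT and -1.08 for CD45 RIT, against -0.16, -0.42 and -0.37 with TMM. Causes were not tested, beyond the fewer libraries of the fits that left one out.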

Other observations

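The macrophage list, set beside no member above, summed to 122 to 166 CPM in untreated libraries, 21.2 to 45.4 after TBI, 28.8 to 67.3 after IgG RIT and 3012 to 3576 after CD45 RIT. Of 9 tested markers 5 rose and 2 fell after CD45 RIT, where 33.1% of all genes tested passed. Most of that sum was Vcam1, which stromal cells also express, and the macrophage markers Adgre1, Vsig4 and Spic had 0 counts in both CD45 RIT libraries. Those zeros were in part shared with other groups: Vsig4 was at 0 in every library, and Adgre1 in every IgG RIT library. Of the 16 stromal markers 9 fell after TBI, 5 fell after IgG RIT and 15 rose after CD45 RIT. Of 15 erythroid markers tested, 3 rose after TBI, 9 rose after IgG RIT and 6 rose after CD45 RIT. For both lists the shares over all genes tested were 4.31%, 16.4% and 33.1% in that order.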
